A study of Mus musculus with 8 samples.

Results

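The Bcl2 family holds the proteins that decide, at the mitochondrion, whether a cell lives or dies, and 10 of its genes are described here in T cells of the inflamed joint. They were taken by symbol from the 24421 symbols of the deposited count table: 5 survival genes (Bcl2, Bcl2l1, Mcl1, Bcl2a1b and Bcl2a1d) and 5 death genes (Bax, Bak1, Bcl2l11, Bbc3 and Pmaip1). All 10 were in the table, and 9 passed the filter on low counts. Bak1 did not. The cells were CD4+ T cells sorted from digested knees of male mice, 16 weeks old, with antigen-induced arthritis, a joint inflammation raised by an antigen to which the animal is immune. One group of 4 libraries was wild type and the other 4 were Slc7a5 knockout, so arthritis, sex, age and tissue were shared by both groups. Slc7a5 encodes the light chain of a transporter of large neutral amino acids. The labels do not name the promoter or the cells in which it was deleted, the deleted part, or whether the 4 libraries of a group are 4 animals. The p-values therefore reflect only the spread among these libraries, part of which may be technical.

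Libraries held 18837650 to 36436923 counts. For Slc7a5, the targeted gene, the wild-type replicates 1 to 4 had 385, 194, 410 and 0 counts, and no knockout library had any. The library labelled wild-type replicate 4 thus goes against its label on this gene, although 46.0% of the 2817 genes within a factor of 2 of the level of Slc7a5 were also at 0 there, against 12.8% to 14.3% in the other wild-type libraries. In knockout replicates 1 to 4, 37.9%, 49.4%, 27.9% and 74.3% of those 2817 genes were at 0, so zeros at this level were common there. The level of Slc7a5 was its mean in wild-type replicates 1 to 3 (10.1 CPM). The lower share of zeros in those libraries may therefore follow in part from the choice of genes. The part of the library labelled wild-type replicate 4 in the results was checked by leaving it out. The T cell markers (10 of 12 in the table) summed to 8866 to 11900 CPM (counts scaled to a common library size) in wild type and to 7373 to 9758 CPM in knockout. Monocyte, macrophage and dendritic cell markers summed to between 1850 and 3681 CPM in wild type and to between 3095 and 11650 CPM in knockout. MHC class II genes (Cd74, H2-Aa, H2-Ab1 and H2-Eb1) made up 50.2% to 94.6% of that sum, while the macrophage markers Adgre1 and Fcgr1 were at 0 in every library. Ccr2, also on that list, ranged from 560.5 to 1686 CPM over the 8 libraries. Lyz2 spanned 22.0 to 25.7 CPM among wild-type libraries, while knockout replicates 1 to 4 held 0, 0, 25.5 and 0.366 CPM. Cd14 spanned 9.0 to 40.1 CPM, and those knockout replicates held 0, 0, 22.2 and 0.209 CPM. Conversely, Csf1r and Flt3 peaked in knockout, at 44.3 CPM (replicate 2) and 53.3 CPM (replicate 1). What this sum says about cell numbers was not tested. Knockout replicate 4 stood apart, with 5221 genes seen against 7684 to 10139 in the other 7 libraries, and with Cd4 at 1.78 CPM beside a Cd3e level of 382 CPM. Of the 3480 tested genes with a mean of at least 50 CPM, 14.9% were at 0 in that library and 1.55% in wild-type replicate 4. That share was 0.0575% to 2.59% in the other 6 libraries. In RNA from a sorted population, fewer cells of a type and less RNA per cell cannot be told apart.

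In the mitochondrial pathway of apoptosis, Bax and Bak1 form the pores through which cytochrome c leaves the mitochondrion. Bcl2, Bcl-xL (the main product of Bcl2l1), Mcl1 and the A1 proteins (Bcl2a1) hold them in check. The BH3-only proteins Bim (Bcl2l11), Puma (Bbc3) and Noxa (Pmaip1) bind the survival proteins and set the pore formers free, Noxa acting mainly on Mcl1 and A1. In T cells, interleukin-7 maintains Bcl2, receptor engagement raises A1 and Bcl-xL, and Bim removes cells at the end of a response.

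The A1 genes are shown first because the mouse has several near-identical copies, and this bears on how their reads were counted. The first 90 coding bases of the 3 copies with counts in every library are printed 5′ to 3′ from the GENCODE vM21 transcripts (GRCm38), with the positions that differ between them in capitals. Each stretch lies within a coding exon on chromosome 9, for Bcl2a1a at chr9:88957051-88957140 (plus strand), for Bcl2a1b at chr9:89199360-89199449 (plus strand) and for Bcl2a1d at chr9:88731630-88731719 (minus strand).
Bcl2a1a: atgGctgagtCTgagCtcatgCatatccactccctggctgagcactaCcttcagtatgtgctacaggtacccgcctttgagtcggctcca
Bcl2a1b: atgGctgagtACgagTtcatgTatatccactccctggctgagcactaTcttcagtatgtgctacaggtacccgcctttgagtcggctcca
Bcl2a1d: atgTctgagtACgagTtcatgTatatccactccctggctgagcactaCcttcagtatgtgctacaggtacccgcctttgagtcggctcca
Over the 516 coding bases before the stop codon, Bcl2a1b and Bcl2a1d differed at 6 positions (98.84% identical), with an unbroken identical run of 217 bases. Of the 367 windows of 150 bases in Bcl2a1b, 68 (18.5%) were identical in Bcl2a1d. Bcl2a1a differed from Bcl2a1d at 7 positions and from Bcl2a1b at 11. A read that falls in a shared stretch cannot be assigned to 1 copy, so the split between the copies is uncertain, and their sum is given beside them. Bcl2a1b also shares 401 exonic bases on the same strand with the gene model Gm29094, which has no row in the deposited counts.

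No member passed the test between genotypes, and Bax, the pore former, was the member with the smallest p, at 0.529 times its wild-type level in knockout. The quasi-likelihood test of edgeR, adjusted by Benjamini-Hochberg, called 0 of the 9 tested members at an adjusted p under 0.05, against 0 of 8489 genes (0.0%). DESeq2 called 0 members and 387 of 10659 genes with an adjusted p (3.63%). The voom method of limma called 0 members and 4 of 8489 genes (0.0471%), with or without quality weights. At an unadjusted p under 0.05, 1 member (Bax) had a lower estimate in knockout, where 1.97% of all tested genes did, and 0 had a higher one, where 1.87% did. Bax was also the single member whose groups did not overlap. Groups did not overlap, with knockout lower, for 4.62% of tested genes and, with knockout higher, for 1.52%. The estimates of the 9 members went both ways, 5 higher and 4 lower in knockout, with a median log2 fold change of 0.17 beside −0.12 for all tested genes.

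**Figure D1:**
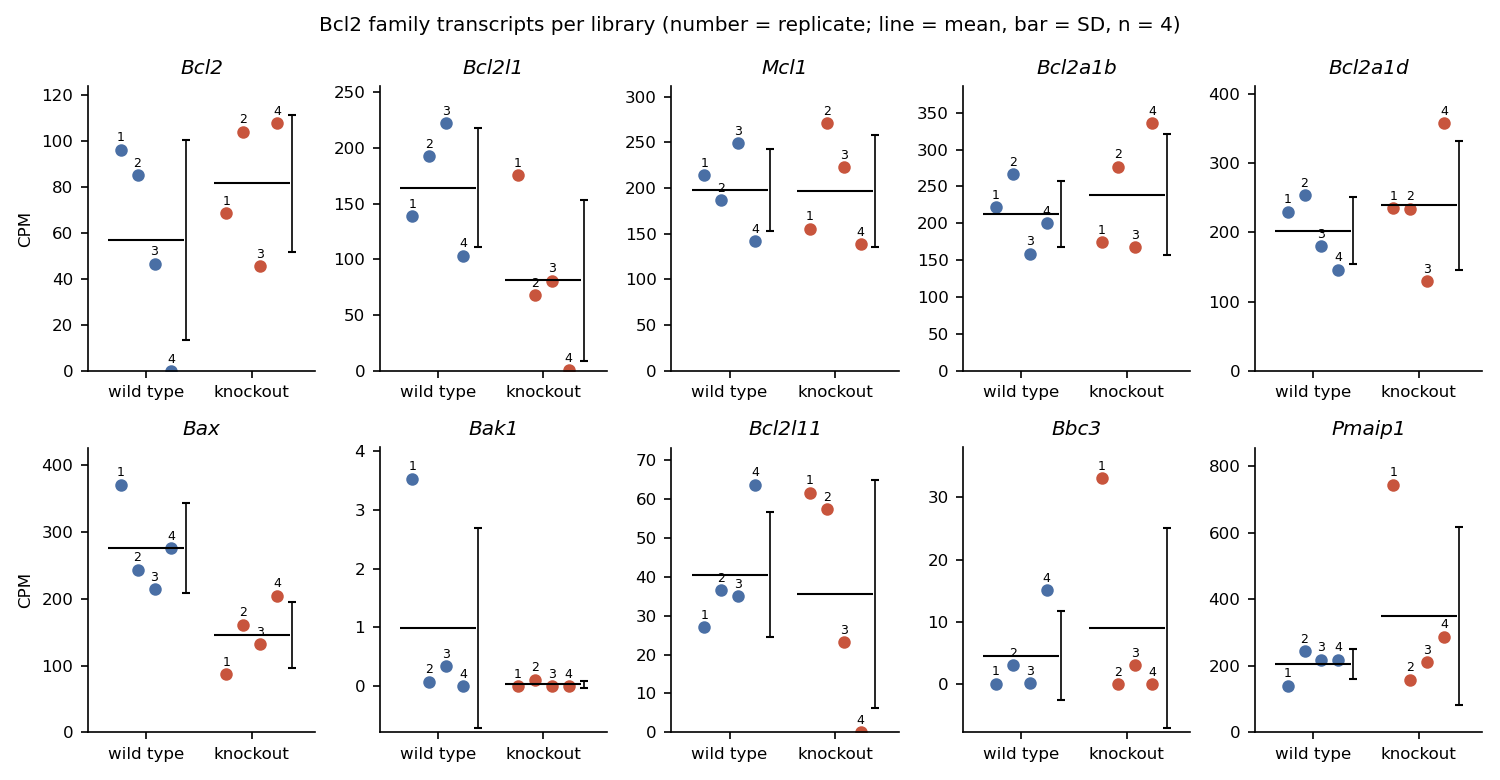
Level of each member in CPM (vertical axes, separate scales) in the 4 wild-type (blue) and 4 knockout (red) libraries. Points carry the replicate number, lines are means and bars SD. The 4 Bax points of knockout, 87.2 to 204 CPM, lie below the 4 of wild type, 215 to 370 CPM, and the groups of every other member overlap.

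Bcl2, the founding survival gene (chromosome 1, 106538176 to 106714290 on GRCm38), was at 96.4, 85.2, 46.7 and 0 CPM in wild-type replicates 1 to 4. In knockout replicates 1 to 4 it was at 68.8, 104, 45.6 and 108 CPM. The groups overlapped, and the wild-type mean of 57.1 ± 43.6 CPM (SD, n = 4) rests in part on replicate 4, whose count of 0 allows up to 0.132 CPM by counting error alone. The knockout mean was 81.7 ± 29.8 CPM. The log2 fold change was 0.52 (SE 1.41, edgeR adjusted p = 0.9999), and it was 0.11 without the library labelled wild-type replicate 4 and −0.08 when both number 4 libraries were left out.

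Bcl2l1 (chromosome 2, 152758732 to 152833803), which encodes Bcl-xL, was at 139, 192, 222 and 103 CPM in wild type. In knockout it was at 175, 67.9, 81.0 and 0.522 CPM. Knockout replicates 2, 3 and 4 lay below every wild-type library and replicate 1 lay within their range. The means were 164 ± 53.3 and 81.1 ± 72.0 CPM (log2 fold change −1.02 with an SE of 1.0, edgeR adjusted p = 0.9999). Replicate 4 of knockout held only 10 counts, and without it the log2 fold change was −0.62 with an unadjusted p of 0.182. Without knockout replicate 1 it was −1.72 with an unadjusted p of 0.156.

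Mcl1 (chromosome 3, 95656944 to 95663179), a survival protein of very short life that T cells need at every stage, was at 214, 186, 249 and 142 CPM in wild type. It was at 156, 271, 223 and 139 CPM in knockout. Both groups spanned nearly the same range, and the highest library of all 8 was only 1.95-fold above the lowest, the narrowest span of the 6 members seen in all 8 libraries. The means were 198 ± 45.3 and 197 ± 61.3 CPM (edgeR log2 fold change −0.01, SE 0.36, adjusted p = 0.9999). The sign of so small an estimate turned with RLE scaling, in DESeq2 and with the offset for GC content.

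Bcl2a1b, an A1 copy at chromosome 9 from 89199273 to 89207838, was at 222, 267, 159 and 201 CPM across wild type, against 174, 277, 168 and 336 CPM across knockout. Bcl2a1d, its twin at chromosome 9 from 88723288 to 88731850, was at 230, 254, 180 and 146 CPM and at 235, 234, 130 and 358 CPM. For both copies the highest of the 8 libraries was knockout replicate 4. The log2 fold change was 0.17 (SE 0.35) for Bcl2a1b and 0.24 (SE 0.37) for Bcl2a1d (edgeR adjusted p = 0.9999 for both), and without that library the estimates were −0.05 and −0.04. The 2 copies took near-equal parts of the reads: Bcl2a1b held 42.6% to 57.8% of their joint count over the 8 libraries, 51.3% ± 4.69 in wild type and 50.4% ± 6.20 in knockout (SD, n = 4 each). Bcl2a1a held 7.53% to 14.7% of the 3 copies' count. Summed into 1 row, which removes the question of the split, the A1 copies were at 462 ± 104 CPM for wild type against 537 ± 173 CPM for knockout. That sum had a log2 fold change of 0.22 (SE 0.28, edgeR adjusted p = 0.9999). If reads that match more than 1 copy were dropped in counting, the sum and all A1 levels given here would be too low. The sources used here do not give how such reads were handled.

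A1 is expressed in granulocytes, macrophages and activated lymphocytes alike, so the markers of other cells are given beside it. H2-Ab1, an MHC class II chain, was at 601, 218, 202 and 140 CPM across wild type, against 2781, 2840, 262 and 2403 CPM across knockout. Knockout replicate 3, with the lowest H2-Ab1 of its group, also had the lowest Bcl2a1d. The 4 class II genes together were at 2930, 1249, 1164 and 1152 CPM in the wild-type replicates and at 8632, 9885, 1840 and 10830 CPM in the knockout replicates. Knockout replicate 4 thus had the highest class II sum as well as the highest A1 levels. Other libraries did not follow that order. Knockout replicate 1, at 8632 CPM of class II, had an A1 sum of 474 CPM. Wild-type replicate 2, at 1249 CPM of class II, had an A1 sum of 583 CPM. Neutrophil markers (9 of 10 in the table) summed to 0 to 95.4 CPM in wild type and 0 to 89.4 CPM in knockout, with Cxcr2 at 0 throughout, and to 0.0522 CPM in knockout replicate 4. Lyz2 was at 0.366 CPM there. Markers of CD8 T and natural killer cells (8 of 8 in the table, with Ncr1, Klra8 and Eomes at 0 throughout) summed to 264 CPM in knockout replicate 4. All of it came from Cd8b1 (123 CPM) and Klrd1 (141 CPM), and Cd8a, Klrb1c and Klre1 were at 0 in that library. In the other 7 libraries that sum was at most 68.0 CPM. The part of antigen-presenting, CD8 T or natural killer cells in the A1 levels was not tested.

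**Figure D2:**
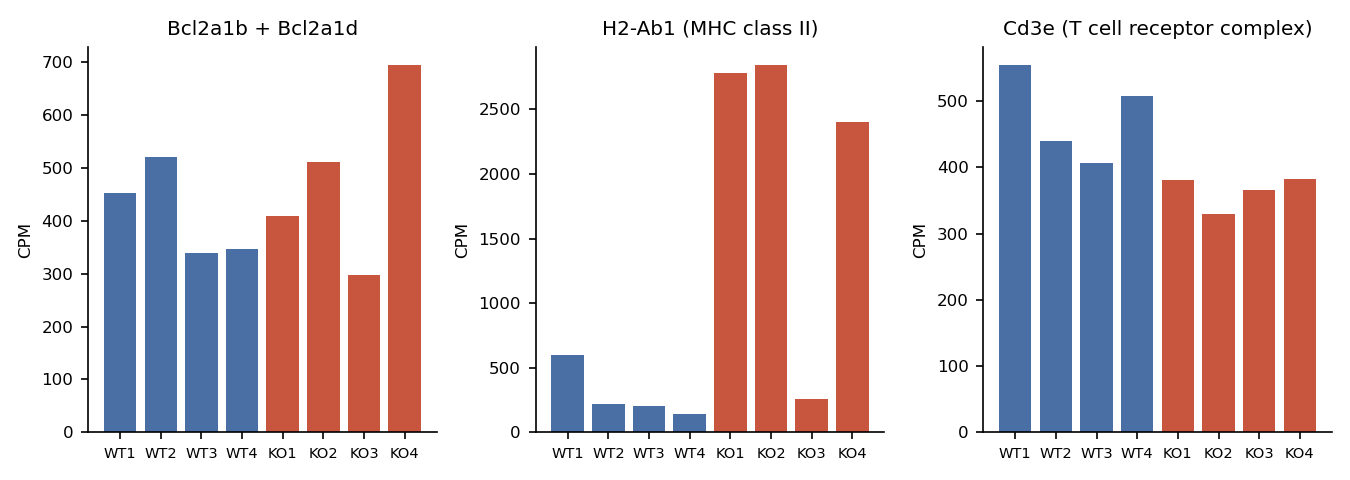
Summed CPM of Bcl2a1b and Bcl2a1d (left), CPM of H2-Ab1 (middle) and CPM of Cd3e (right) in each library, wild type in blue and knockout in red. The A1 sum peaks in knockout replicate 4, H2-Ab1 is at 2403 CPM or more in 3 knockout libraries, and Cd3e ranges from 330 to 554 CPM.

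RefSeq promoter windows, 250 bases before to 50 after a start site (GRCm38.p6), were found for 9 of the 10 members. They are shown for the A1 pair because both copies were highest in the same library. The 120 bases printed for each lie upstream of the start site and in no GENCODE exon, at chr9:89199069-89199188 (plus strand) and chr9:88731915-88732034 (minus strand), and the capitals mark GAGGAAGT, a motif of the ETS family.
Bcl2a1b: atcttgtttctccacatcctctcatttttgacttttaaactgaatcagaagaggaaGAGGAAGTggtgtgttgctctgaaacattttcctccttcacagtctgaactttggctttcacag
Bcl2a1d: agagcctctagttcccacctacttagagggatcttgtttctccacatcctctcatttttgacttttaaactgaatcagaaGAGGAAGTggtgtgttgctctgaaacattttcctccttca
GAGGAAGT on either strand was in 3.2% of the 32851 windows of that length, and among the members also in the window of Bak1. The NF-kappaB motif, for which A1 is a textbook target, was in 5.8% of windows and not in those of Bcl2a1b or Bcl2a1d. It was present in a window of Bcl2l1 and in one of Bbc3. A match describes these letters and is not a bound site.

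Bax (chromosome 7, 45461695 to 45466903), the pore former held in the cytosol until it is activated, was at 370, 243, 215 and 276 CPM in wild type. In knockout it was at 87.2, 161, 132 and 204 CPM. All 4 knockout libraries were lower than all 4 of wild type, with means of 276 ± 67.7 and 146 ± 49.3 CPM (SD, n = 4 each). The log2 fold change was −0.92 (SE 0.36), with an unadjusted p of 0.0271 and an adjusted p of 0.9999 in edgeR. Over 21 alternatives the estimate stayed below 0, between −1.14 and −0.02, and 13 of them had an unadjusted p under 0.05. The unadjusted p was 0.105 without wild-type replicate 1, the library with the highest Bax, 0.0692 without knockout replicate 1, the one with the lowest, 0.0517 without the library labelled wild-type replicate 4, 0.0631 without knockout replicate 3 and 0.0832 in DESeq2. It was above 0.05 too in the fits with the replicate number as a block (0.0529), with the GC offset and with both. Bax shares 192 exonic bases on the same strand with the gene model Gm45808, which has no row in the deposited counts.

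The GC content of transcripts moved with this difference. The longest Bax transcript is 63.5% G and C, above 99.8% of the 4527 abundant tested genes. Between the GC-rich among those genes (453 with 56.4% or more) and the GC-poor (40.6% or less), the median log2 deviation from each gene's mean differed by 0.89, 0.13, 0.45 and 0.31 in wild-type replicates 1 to 4. It differed by −0.20, −0.80, −0.32 and −0.35 in the knockout replicates, so that, relative to GC-poor transcripts, GC-rich ones stood higher in all 4 wild-type libraries and lower in all 4 knockout libraries. The GC-rich genes had a median log2 fold change of −0.38 and the GC-poor ones 0.37. With an offset for GC content in each library, Bax had a log2 fold change of −0.02 (SE 0.52, edgeR unadjusted p = 0.973, adjusted p = 0.9997). The offset also moved the median of all genes from −0.12 to 0.15, and relative to that median Bax was at −0.80 without and −0.17 with it. The GC balance of the libraries and the genotype cannot be told apart in this design.

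**Figure D3:**
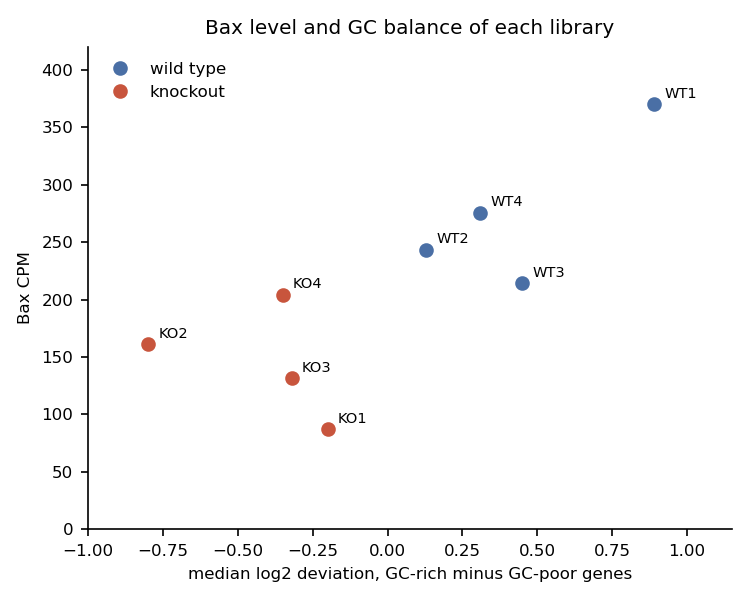
Bax CPM (vertical axis) against the median log2 deviation of GC-rich minus GC-poor genes (horizontal axis) in each library, wild type in blue and knockout in red. The wild-type libraries lie at 0.13 to 0.89 on the horizontal axis and the knockout libraries at −0.80 to −0.20. Within knockout, replicate 1 has the lowest Bax and the GC balance nearest to wild type.

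The 120 bases before the RefSeq start of Bax, at chr7:45466899-45467018 (minus strand), are shown because Bax was the member that separated the groups. The capitals mark CACGTG, an E-box, which reads the same on both strands.
Bax: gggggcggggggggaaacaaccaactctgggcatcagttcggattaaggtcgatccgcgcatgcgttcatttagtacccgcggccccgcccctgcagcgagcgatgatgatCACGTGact
This E-box starts 9 bases upstream of the start site. The window of Bax holds 2 in all, of which 1 is in the stretch printed, and a window of Bbc3 holds 1. CACGTG was in 7.15% of all windows. The window of Bax is 57.3% G and C.

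Bak1 (chromosome 17, 27019812 to 27028627), the pore former that sits in the mitochondrial membrane, was barely seen. It had 127, 2, 11 and 0 counts in wild type and 0, 2, 0 and 0 in knockout, or at most 3.53 CPM. Almost all of its wild-type reads came from replicate 1. Pooled, 140 wild-type against 2 knockout counts give a ratio of 50.7 (95% exact interval 13.8 to 422, covering counting error only and not the difference between libraries). In the edgeR fit without a filter the log2 fold change was −4.96 (SE 3.52, adjusted p = 0.687). Reads of Ggnbp1, which shares 177 exonic bases on the opposite strand, may be among them, since the sources used here do not give the strand setting.

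The BH3-only genes come next. Bcl2l11 and Bbc3 are textbook targets of the forkhead factor Foxo3, so a stretch of each is shown as background. The stretches lie at chr2:128125788-128125907 (plus strand) and chr7:16310037-16310156 (plus strand, within the gene but in no GENCODE exon). GTAAACA or its reverse complement is in capitals.
Bcl2l11: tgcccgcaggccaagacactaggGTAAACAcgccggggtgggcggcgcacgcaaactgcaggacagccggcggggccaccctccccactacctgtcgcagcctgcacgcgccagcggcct
Bbc3: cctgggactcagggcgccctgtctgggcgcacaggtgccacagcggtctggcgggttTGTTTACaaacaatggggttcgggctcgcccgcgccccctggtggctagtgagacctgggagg
The motif starts 227 bases upstream of the RefSeq start for Bcl2l11 and 167 for Bbc3, and 3.65% of all windows hold it. No other member's window did. Foxo3 itself was scarce, at 22.5, 1.34, 0.0308 and 17.8 CPM across wild type, against 0, 0, 2.19 and 0 CPM across knockout (edgeR log2 fold change −4.23, SE 2.88, adjusted p = 0.9999). Its wild-type mean of 10.4 CPM is near the level of Slc7a5, where 27.9% to 74.3% of genes were at 0 in a given knockout library. The part of such absence in the Foxo3 values, and any part of Foxo3 in the levels of Bcl2l11 and Bbc3, was not tested.

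Bcl2l11 (chromosome 2, 128126038 to 128162547), whose product Bim drives the death of T cells deprived of cytokine, was at 27.0, 36.5, 35.1 and 63.7 CPM in wild type. In knockout it was at 61.6, 57.3, 23.1 and 0 CPM. Knockout replicates 1 and 2 lay just under the highest wild-type library, and replicate 4 had no read, which allows up to 0.157 CPM by counting error alone. The means were 40.6 ± 16.0 and 35.5 ± 29.3 CPM (edgeR log2 fold change −0.19, SE 1.65, adjusted p = 0.9999). Without knockout replicate 4 the estimate was 0.21, and without both number 4 libraries 0.51 (edgeR unadjusted p = 0.528).

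Bbc3 (chromosome 7, 16308398 to 16318334), which encodes Puma, was scarce, at 0.0278, 3.04, 0.154 and 15.1 CPM across wild type, against 33.1, 0, 2.99 and 0 CPM across knockout. Each group had 1 library that held most of its reads, replicate 4 in wild type and replicate 1 in knockout. The log2 fold change was 0.98 (SE 2.66, edgeR adjusted p = 0.9999) and −2.19 without knockout replicate 1. The counts of 0 in knockout replicates 2 and 4 allow up to 0.167 and 0.157 CPM. No direction can be read from such values.

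Pmaip1 (chromosome 18, 66458604 to 66465558), which encodes Noxa, was at 140, 245, 218 and 219 CPM in wild type. In knockout it was at 744, 159, 212 and 288 CPM. Replicate 1 of knockout was 5.30-fold above the lowest of the 8 libraries, and the other 3 knockout libraries lay within or close to the wild-type range. The means were 206 ± 45.2 and 351 ± 268 CPM (log2 fold change 0.77, SE 0.46, edgeR unadjusted p = 0.119, adjusted p = 0.9999). Without knockout replicate 1 the log2 fold change was 0.10, and without replicate 2 it was 0.99 with an unadjusted p of 0.0403 and an adjusted p of 0.760. The same library, knockout replicate 1, was the lowest in Bax and the highest in Bbc3 and Pmaip1.

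Levels of different genes were compared as CPM per kb of the longest transcript. In wild type, Bcl2a1b (260 ± 55.0), Bax (251 ± 61.5) and Bcl2a1d (235 ± 56.1) led and did not differ beyond their spread. Pmaip1 (75.4 ± 16.6), Bcl2l1 (63.9 ± 20.7) and Mcl1 (57.9 ± 13.3) came next, again within their spread, and their highest library (89.9) lay below the lowest of the leading 3 (170). Bcl2l11 (8.05 ± 3.17), Bcl2 (7.94 ± 6.06) and Bbc3 (2.52 ± 3.93) overlapped with each other, and Bak1 (0.413 ± 0.713), whose range met those of Bcl2 and Bbc3, was last. In knockout the order by mean was Bcl2a1b (292 ± 100), Bcl2a1d (277 ± 108), Bax (133 ± 44.8) and Pmaip1 (129 ± 98.2), then Mcl1 (57.7 ± 17.9) and Bcl2l1 (31.6 ± 28.0). Bax and Pmaip1, neighbours in that order, overlapped in knockout and were apart in wild type, where the lowest Bax library (195) stood above the highest Pmaip1 library (89.9). With the union of exons as the length, Bax in wild type was at 175 and Bcl2l1 at 35.8, below Mcl1 by the same measure.

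The survival members summed to 624 ± 116 CPM per kb in wild type and 670 ± 179 in knockout, and the death members to 337 ± 47.9 and 274 ± 82.5. The survival share of the total was 62.9%, 70.4%, 66.8% and 58.5% in wild type and 61.4%, 77.2%, 69.2% and 75.1% in knockout. Those ranges overlapped. A1 made up 70.9% to 93.7% of the survival sum over the 8 libraries, most in knockout replicate 4. Bax made up 69.1% to 85.2% of the death sum in wild type and 20.7%, 67.8%, 58.8% and 63.8% in knockout, and every knockout library lay below the wild-type range. Pmaip1 took most of the remainder, 71.3% in knockout replicate 1. The Bax share restates in part the lower Bax level in knockout given above, and it takes no account of GC content. By level, 4.62% of all tested genes had groups that did not overlap, with knockout lower. These sums describe transcripts and carry no test.

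**Figure D4:**
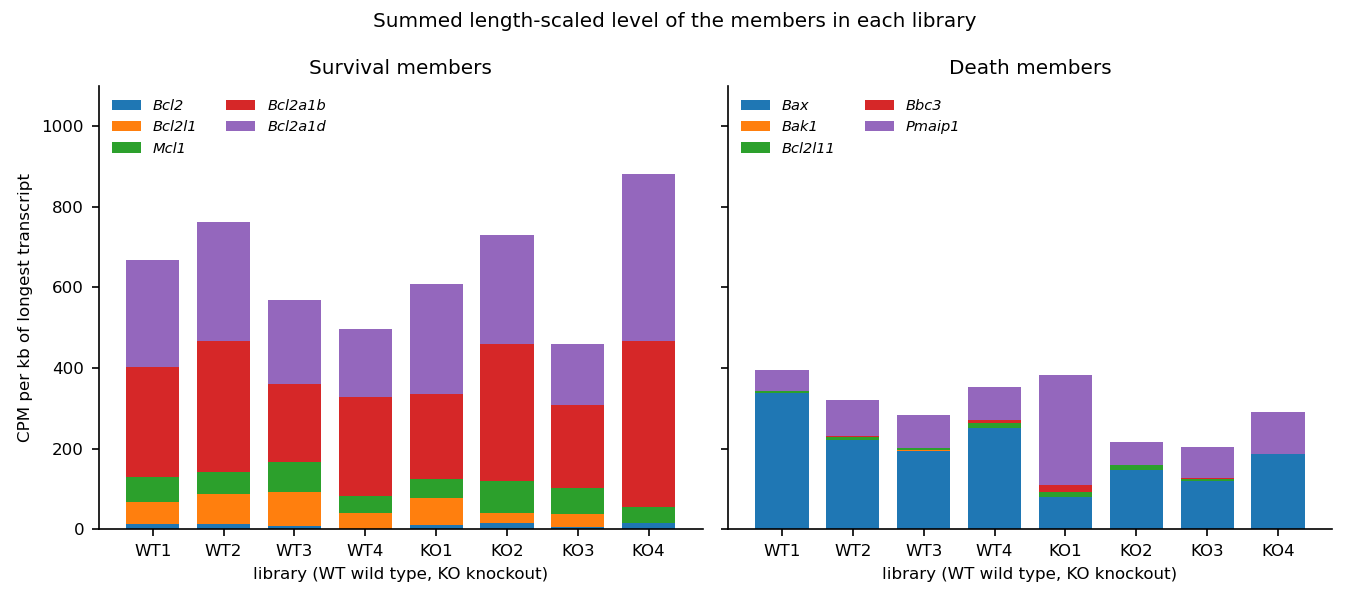
Stacked CPM per kb of the longest transcript (vertical axis) for the 5 survival members (left) and the 5 death members (right) in each library. A1 (red and purple, left) is the largest part of every survival sum, and Bax (blue, right) the largest part of every death sum except that of knockout replicate 1.

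Other genes of the pathway were taken from 11 lists with 122 distinct genes, of which 103 were tested. edgeR called 0 of them (adjusted p under 0.05) and limma voom 0, while DESeq2 called Bclaf1 and Zmat3 and also Phlda3, a gene of the lists that the edgeR filter had removed. Of all genes with an adjusted p, DESeq2 called 3.63%. At the level of single tests in edgeR, 5 of the 103 had a higher and 3 a lower estimate at an unadjusted p under 0.05. Of all tested genes, 1.87% and 1.97% did. The median log2 fold change of the 103 was −0.12, the same as that of all tested genes. Whatever their p, 3817 of all 8489 tested genes had higher estimates and 4672 lower ones. Among the other BH3-only genes, Bid, which links death receptors to mitochondria, was at 15.6 ± 14.2 and 19.5 ± 18.1 CPM, and Bad at 22.0 ± 4.31 and 20.7 ± 17.4 CPM, both with 0 in knockout replicate 4. In the list of the apoptosome and of mitochondrial release, 9 of 12 tested genes had higher estimates (median 0.42, or 0.98 with the GC offset). Its member Cycs, cytochrome c itself, was at 381, 671, 632 and 523 CPM across wild type, against 751, 734, 676 and 1548 CPM across knockout (log2 fold change 0.75, SE 0.30, edgeR unadjusted p = 0.0297, adjusted p = 0.9999). All 4 knockout libraries were above wild type, as for 1.52% of all tested genes. Knockout replicate 3, at 676 CPM, was only just above the highest wild-type library, at 671 CPM. The highest value came from knockout replicate 4, the library that stood apart. Of 15 tested death receptor genes, 10 had lower estimates, where 55.0% of all tested genes did, and the median was −0.28, or 0.14 with the GC offset. Fasl, the ligand of the death receptor Fas, was at 253, 431, 222 and 283 CPM across wild type, against 69.1, 206, 125 and 213 CPM across knockout (log2 fold change −0.96, SE 0.41, unadjusted p = 0.039, adjusted p = 0.9999). With the GC offset Cycs was at 1.13 and Fasl at −0.52.

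Among the caspase inhibitors, 2 of 5 tested genes had higher estimates, and Birc3 (187 ± 95.1 and 98.0 ± 84.7 CPM) and Birc6 (326 ± 60.7 and 504 ± 220 CPM) overlapped between groups. Of the survival signals upstream, 8 of 19 tested genes had higher and 11 lower estimates, and the median was −0.29, or 0.35 with the GC offset. One was Il2ra, the high-affinity chain of the interleukin-2 receptor, at 371, 652, 826 and 1354 CPM across wild type, against 1328, 1113, 1148 and 1897 CPM across knockout (log2 fold change 0.78, SE 0.34, edgeR unadjusted p = 0.044, adjusted p = 0.9999). Il7r, the receptor of the cytokine that maintains Bcl2, was at 283 ± 68.2 and 468 ± 302 CPM (0.73, SE 0.42, unadjusted p = 0.107). In the list of Mcl1 turnover and binding partners, 5 of 14 tested genes had higher estimates. Bclaf1, named for its binding to Bcl2 and a factor of RNA processing, was at 77.8, 179, 171 and 75.1 CPM across wild type, against 495, 467, 332 and 453 CPM across knockout (1.80, SE 0.37, edgeR unadjusted p = 0.000401, adjusted p = 0.460). DESeq2 called it, with an adjusted p of 0.0169. Ywhaz, a 14-3-3 protein that holds phosphorylated Bad in the cytosol, was at 3890 ± 714 and 5789 ± 2401 CPM (0.57, SE 0.26, unadjusted p = 0.0449, adjusted p = 0.9999). Of the Bcl2 relatives and mitophagy receptors, 3 of 6 tested genes had higher estimates, with the receptor Bnip3l at 258 ± 47.0 and 319 ± 105 CPM and Bnip2 at 110 ± 40.9 and 73.4 ± 60.7 CPM.

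**Figure D5:**
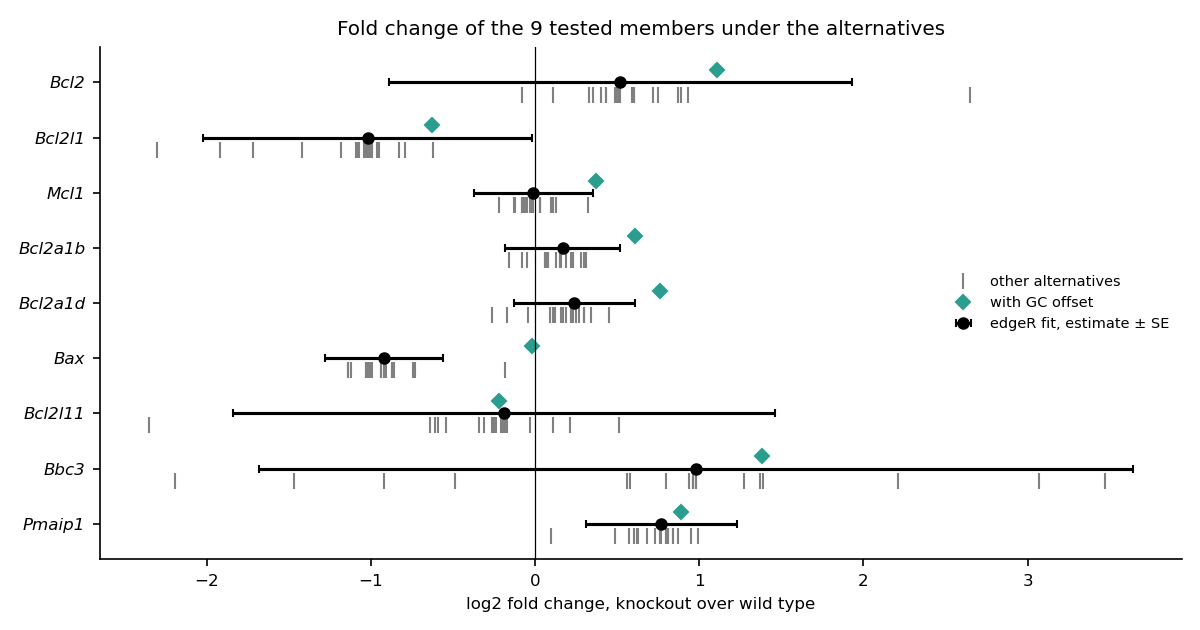
Log2 fold change, knockout over wild type (horizontal axis), of the 9 tested members: the edgeR estimate with its SE (black), the estimate with the GC offset (green diamonds) and the other alternatives (grey ticks). Bax runs from −1.14 to −0.02, Bcl2l1 from −2.30 to −0.62 and Pmaip1 from 0.10 to 0.99. Bcl2, Mcl1, Bcl2a1b, Bcl2a1d, Bcl2l11 and Bbc3 span both sides of 0.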

How the data were processed

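RNA of 8 samples of sorted CD4+ T cells was sequenced from low-input libraries (per the labels' protocols). The authors deposited unnormalized counts of reads, 1 row per gene symbol. Per the submitters' processing notes, the mm10 build, HISAT2 2.1.0, featureCounts and edgeR 3.28.1 were used. The annotation, strand setting, duplicate handling and treatment of reads that match more than 1 place are not given in the sources used here. Positions come from RefSeq GRCm38.p6, whose coordinates mm10 shares, with 23201 of 24421 symbols matched.

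From these counts, edgeR 4.0.16 in R 4.3.3 filtered genes (filterByExpr, minimum count 10, minimum total 15), scaled libraries by TMM and compared knockout with wild type by the quasi-likelihood test with robust dispersion, with no other term than genotype, adjusted by Benjamini-Hochberg over 8489 genes. A gene was called at an adjusted p under 0.05. Each SE was taken as the absolute log2 fold change divided by the root of the F statistic. CPM uses the scaled library sizes. A count of 0 is given the limit that 3 counts allow. The script was checked on simulated data.

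Alternatives were no filter, a stricter filter (5 CPM in 4 libraries), 3 other scalings, DESeq2 1.42.0, limma 3.58.1 voom with and without quality weights, a block for the replicate number, an offset for GC content (loess, span 0.75, from genes whose log2 CPM averaged over 5; GC known for 96.6% of tested genes), both together, each library left out, both number 4 libraries left out, an adjusted p under 0.10, and exon union as gene length. Summing the A1 copies was added after the data were seen. The members and lists were chosen with earlier results of these data known. Named genes were the members, Slc7a5, and from each list up to 3 tested genes of smallest p under 0.05, or else the 2 of highest mean CPM. For each member seen in all libraries at a mean of at least 50 CPM, the 2 genes of most similar pattern were also named. Foxo3, Il7r, Phlda3, Trp53, the other named genes of the p53 list except Zmat3, and the genes of the marker and overlap checks were added after their values were seen.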

Additional observations from a re-analysis of the deposited data

Results flagged for a closer look

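In 3 of the 20 groups of 4 libraries examined (10 members, 2 genotypes), 1 library lay far from the other 3 by Dixon's gap test at the 95% level. Chance alone flags about 1 group in 20 if the values are normally distributed. Levels near 0, as in these groups, are not, so the number flagged cannot be set against that rate. Bak1 was at 3.53 CPM in wild-type replicate 1 and at 0.339 CPM or less in the other wild-type libraries. Bak1 was at 0.111 CPM, from 2 counts, in knockout replicate 2 and at 0 in the other knockout libraries, where a count of 0 allows 0.119 to 0.157 CPM, so at this depth that library cannot be told from the others. Bbc3 was at 33.1 CPM in knockout replicate 1 and at 2.99 CPM or less in the other knockout libraries.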

How the results depend on the processing

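The number of members called was 0 under every alternative. The number of genes called was 387 in DESeq2, 4 in limma voom and 4 in limma voom with quality weights, and 0 under the other alternatives, leaving out each library in turn (0 to 0) and an adjusted p under 0.10 included. Signs turned for Bcl2 without both number 4 libraries (−0.08), for Mcl1 with RLE scaling (0.03), in DESeq2 (0.03), with the GC offset (0.37), with the replicate block and GC offset (0.32) and without wild-type replicates 1 and 3 or knockout replicates 1 and 4, each in turn (0.03, 0.13, 0.10 and 0.11). They turned in limma voom with quality weights, without knockout replicate 4 and without both number 4 libraries for Bcl2a1b (−0.16, −0.05 and −0.08) and Bcl2a1d (−0.26, −0.04 and −0.17). Bcl2l11 turned without wild-type replicate 4 (0.11), without knockout replicate 4 (0.21) and without both (0.51). Bbc3 turned in limma voom (−0.49), with the replicate block (−1.47), with the block and GC offset (−0.92) and without knockout replicate 1 (−2.19). The causes were not tested. Leaving out 1 library at a time gave 0.11 to 0.89 for Bcl2, −1.72 to −0.62 for Bcl2l1, −1.14 to −0.73 for Bax, 0.10 to 0.99 for Pmaip1, −0.05 to 0.31 for Bcl2a1b, −0.04 to 0.45 for Bcl2a1d, −0.22 to 0.13 for Mcl1, −0.59 to 0.21 for Bcl2l11 and −2.19 to 3.07 for Bbc3. Bcl2l1, Bax and Pmaip1 kept their sign under all 21 alternatives. The replicate numbers showed little sign of pairing: deviations from the group means of same-numbered libraries correlated across genes at −0.022 to 0.053. The number 4 libraries were the only same-numbered ones that were each other's closest match (0.053). Such low correlations cannot tell whether libraries were prepared in pairs. With the replicate block, as without it, 0 genes were called, so that count says nothing about pairing. The block gave Bax a log2 fold change of −0.94 (edgeR unadjusted p = 0.0529). The median log2 fold change of all genes, −0.12 here, was −0.09 with RLE scaling, 0.15 with the GC offset, −0.20 with upper quartile scaling, −0.22 by total counts and −1.28 in limma voom. With exon union as length, Bcl2l1 (35.8) and Bax (175) in wild type moved by more than their SD in CPM per kb. Low counts limit Bak1 and Bbc3, and the near absence of Bcl2l1 and Bcl2l11 from knockout replicate 4 limits those.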

Other observations

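Upstream of the members, the p53 list had lower estimates for 8 of 10 tested genes, where 55.0% of all tested genes did. Its median log2 fold change was −0.47 without and with the GC offset, beside −0.12 and 0.15 for all genes. Mdm2, Ccng1, Sesn1, Trp53inp1 and Aen of this list were at 0.1045 CPM or less in knockout replicate 4, the library that stood apart. Mdm4, Cdkn1a and Tnfrsf10b were at 244, 360.5 and 62.8 CPM there. The part of that library in these estimates was not tested. In that list edgeR called 0 genes and limma voom 0. At an unadjusted p under 0.05 in edgeR, 1 gene (Zmat3) was lower, where 1.97% of all tested genes were. DESeq2, which called 3.63% of all genes with an adjusted p, called Zmat3 and also Phlda3. The edgeR filter had removed Phlda3, which had 1269 and 1128 counts in wild-type replicates 2 and 3 and 0 in each of the other 6 libraries. Zmat3, a p53 target that binds RNA, was at 29.7, 6.58, 11.2 and 20.2 CPM across wild type, against 0, 0, 0.0398 and 0 CPM across knockout (edgeR unadjusted p = 0.00338, adjusted p = 0.460). Pooled, 2075 against 1 counts give a wild-type to knockout ratio of 1500 (95% exact interval 269 to 59300, for counting error only). Zmat3 had a wild-type mean of 16.9 CPM, near the Slc7a5 level of 10.1 CPM in wild-type replicates 1 to 3. At that level, 27.9% to 74.3% of genes were at 0 in a given knockout library. The part of such absence in this ratio was not tested. Trp53 was at 117, 161, 64.6 and 150 CPM across wild type, against 70.2, 84.0, 92.1 and 11.2 CPM across knockout. Bax, Bbc3 and Pmaip1 are p53 targets by textbook knowledge and had estimates of −0.92, 0.98 and 0.77. Among the regulators of Bcl2 family transcripts, Nfkb1, an NF-kappaB subunit, was at 229, 123, 273 and 175 CPM across wild type, against 62.4, 18.5, 83.0 and 0.366 CPM across knockout (−2.28, SE 1.04, edgeR unadjusted p = 0.048, adjusted p = 0.9999). Rel, the subunit known to drive A1 and Bcl-xL in lymphocytes, was at 22.8, 30.1, 25.4 and 134 CPM across wild type, against 103, 287, 84.0 and 240 CPM across knockout (1.74, SE 0.73, unadjusted p = 0.0352, adjusted p = 0.9999). In the list of the integrated stress response, which shortage of amino acids starts, 2 of 5 tested genes had higher estimates (median −0.37, or 0.41 with the GC offset), with Asns at 40.2 ± 29.7 and 73.6 ± 58.7 CPM and Ppp1r15a at 526 ± 161 and 408 ± 80.6 CPM.

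Over the 8 libraries, the genes closest in pattern among the 2816 compared were, by Pearson's r of log2 CPM, given as a description of the same libraries, Actn4 (0.995) and Rpn1 (0.994) for Bcl2l1, Syt11 (0.947) and Csnk1a1 (0.945) for Mcl1, and Sept1 (0.957) and Ly6e (0.922) for Bax. They were Bnip3l (0.886) and Emp1 (0.883) for Bcl2a1b, Igf2r (0.939) and Psmd8 (0.925) for Bcl2a1d, and Pyhin1 (0.876) and Rbms1 (0.859) for Pmaip1. The genes nearest to Bcl2l1 shared its near absence from knockout replicate 4, with Actn4 at 3.60 CPM and Rpn1 at 0.366 CPM there, against at least 106 and 71.4 CPM elsewhere.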
